A study of Mus musculus with 24 samples.

Results

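The genes described here are the ligands Vegfa, Vegfb and Vegfc, the receptor tyrosine kinases Flt1, Kdr and Flt4, and the co-receptors Nrp1 and Nrp2. They were taken by gene symbol from the count matrices, as 8 of 32288 genes, and followed through single nucleus RNA libraries of the mouse brain. The libraries came from 6 female Pdgfb ret/ret mice, called mutants, and 6 Pdgfb ret/wt mice, called controls, of the strain B6.Pdgfbtm3Cbet. In this line the retention motif of PDGF-B, the ligand that recruits pericytes to vessels, is removed. The controls carry the same allele on 1 chromosome, so no mouse without it was compared, and control 6 was the only male. Ages ran from 4 months and 7 days to 5 months and 18 days. Mice with the same number were of the same age, except that the ages at numbers 5 and 6 differed by 2 days between genotypes.

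Each mouse gave 1 library of deep brain, the region that calcifies in this line and that combined pallidum, interbrain, midbrain and hindbrain. It gave another of cortex with hippocampus, which stays free of calcification, for 24 libraries in all. Mice were perfused with buffered saline and heparin before the tissue was frozen. After filtering, 124958 deep brain nuclei (7715 to 11952 per library) and 79967 cortical nuclei (2328 to 11083 per library) were used. Total counts of unique molecular identifiers (UMIs) per library ran from 64736053 to 96459036 in deep brain and from 23625232 to 95605387 in cortex. In 7 cortical libraries the median nucleus held under 1500 UMIs. Pairs of libraries shared between 0.284% and 1.99% of their cell barcodes. Nuclei were clustered within each region without the 8 genes and named from fixed markers. A total of 8006 deep brain and 9870 cortical nuclei stayed in clusters without a name.

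The VEGF family directs the growth, survival and permeability of vessels. VEGF-A signals mainly through KDR (VEGFR2) on endothelial cells, while FLT1 (VEGFR1) binds VEGF-A and VEGF-B tightly with weak kinase activity and exists also as a soluble decoy. VEGF-C is the main ligand of FLT4 (VEGFR3), the receptor of lymphatic endothelium and of sprouting vessels. The neuropilins NRP1 and NRP2 lack kinase activity and serve as co-receptors of VEGFs and as receptors of class 3 semaphorins, which guide axons. In the brain, astrocytes and other glia are known sources of VEGF-A.

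In the mouse genome (GRCm38, GENCODE vM21 gene models), Flt1 (ENSMUSG00000029648) lies at chr5:147561604-147726011 and Kdr (ENSMUSG00000062960) at chr5:75932827-75978458, both on the minus strand. Flt4 (ENSMUSG00000020357) lies at chr11:49609263-49652739 on the plus strand. Nrp1 (ENSMUSG00000025810) lies at chr8:128358604-128503363 and Nrp2 (ENSMUSG00000025969) at chr1:62703285-62818695, both on the plus strand. Nrp2 overlaps Gm29083, a counted gene on the other strand. Of the ligands, Vegfa (ENSMUSG00000023951) lies at chr17:46016993-46032369 and Vegfb (ENSMUSG00000024962) at chr19:6982473-6987651, both on the minus strand. Vegfc (ENSMUSG00000031520) lies at chr8:54077606-54187096 on the plus strand.

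The promoters of Flt1 and Kdr are shown because endothelium gave very different shares of their UMIs in deep brain, 73.2% for Flt1 and 35.3% for Kdr. Each sequence (RefSeq, GRCm38.p6) is 200 bases long, ends 51 bases before the start in RefSeq, which for Kdr is not that of GENCODE, and reads 5′ to 3′ on the gene's strand. Capitals mark GGAA and its reverse complement TTCC, the core that ETS transcription factors bind. The window of Flt1 is chr5:147726062-147726261 and that of Kdr is chr5:75978506-75978705, both on the minus strand.
Flt1: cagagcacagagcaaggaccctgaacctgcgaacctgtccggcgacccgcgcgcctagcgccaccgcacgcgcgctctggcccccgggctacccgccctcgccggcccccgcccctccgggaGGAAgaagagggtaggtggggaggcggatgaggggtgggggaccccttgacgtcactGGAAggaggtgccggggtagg
Kdr: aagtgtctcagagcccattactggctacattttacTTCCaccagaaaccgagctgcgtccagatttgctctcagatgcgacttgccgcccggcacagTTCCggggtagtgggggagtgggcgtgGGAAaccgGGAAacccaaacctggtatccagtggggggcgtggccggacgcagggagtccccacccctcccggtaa
Counted on both strands, the core occurred 2 times in the Flt1 window and 4 times in the Kdr window. Of 27025 promoter windows of this length, 89.12% held at least 1 core and the median was 2. As many cores as in Flt1 were present in 66.0% of them, and as many as in Kdr in 20.45%. These matches describe the letters only.

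Levels are UMIs of a gene per 1000000 UMIs of a cell class in 1 library (CPM). They are given as mean ± SD over the libraries of both genotypes with at least 10 nuclei of the class, and are compared between classes without a test. CPM was not divided by gene length, so levels are compared within a gene and not between genes. In deep brain all 6 such libraries of mural cells were controls, and the 3 of B cells and 6 of T cells were all mutants, so for these the genotype and the class cannot be told apart. In such sums, fewer expressing nuclei and less RNA per nucleus cannot be told apart. The endothelial class of deep brain held 616 nuclei (18 to 74 per library). All 14 endothelial markers were over 2-fold higher there than in the other classes, with a summed level of 21100 against 39.3 CPM.

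Among the ligands, Vegfa was highest in astrocytes and oligodendrocyte precursor cells. In deep brain its level was 252.5 ± 50.9 CPM (SD, n = 12) in astrocytes and 221.4 ± 96.4 CPM (n = 12) in precursor cells, a gap smaller than either spread. Tanycytes, ependymal-type cells of the third ventricle, held 146.7 ± 96.1 CPM (n = 8) and choroid plexus epithelium 146.2 ± 30.1 CPM (n = 5). Committed oligodendrocytes held 86.8 ± 19.0 CPM, and the neuronal classes and mature oligodendrocytes had means between 28.0 and 36.6 CPM. Endothelial cells stood lowest of these, at 11.4 ± 11.4 CPM (n = 12). By UMIs rather than level, GABAergic neurons gave 25.1% of all deep brain Vegfa UMIs and astrocytes 21.5%. In cortex the order at the top was kept, with 302.0 ± 61.1 CPM in astrocytes and 278.8 ± 96.3 CPM in precursor cells. In controls alone astrocytes held the higher mean, at 273.6 against 160.4 CPM in deep brain and 309.1 against 232.5 CPM in cortex. In mutants precursor cells did, at 282.4 against 231.3 CPM in deep brain and 325.1 against 294.9 CPM in cortex.

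Vegfb, a ligand of FLT1 linked to lipid handling and survival of vessels, had no class that stood far above the rest. Leaving out B cells, in deep brain it ran from 17.8 CPM in glutamatergic neurons to 49.5 CPM in border macrophages, with 49.0 ± 6.27 CPM (n = 12) in astrocytes. B cells held 76.5 CPM, a value that rests on 5 UMIs in 3 libraries.

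Vegfc was highest in the endothelium itself, at 169.5 ± 97.3 CPM (n = 12). Fibroblasts held 55.7 ± 24.5 CPM (n = 12). In controls alone the values were 104.2 ± 65.4 CPM and 62.3 ± 28.1 CPM (n = 6 each), a gap smaller than the endothelial SD. T cells gave 59.7 ± 91.9 CPM (n = 6) from 11 UMIs. Glutamatergic neurons held 19.2 ± 3.59 CPM and gave 41.75% of all deep brain Vegfc UMIs. No Vegfc UMI was found in mural cells, where 3 counts would correspond to 11.8 CPM over all libraries.

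The receptors were concentrated in endothelium to different degrees. Flt1 stood at 4169 ± 698.7 CPM (n = 12) in deep brain endothelium, where 92.7% of nuclei held a Flt1 UMI and which gave 73.2% of all Flt1 UMIs of the region. Kdr stood at 554.1 ± 139.0 CPM in the same class, with the next highest means, 26.7 CPM in B cells (3 libraries), 18.1 CPM in ependymal cells and 16.6 CPM in tanycytes, far below it. The endothelial class gave 35.3% of Kdr UMIs, and oligodendrocytes, at only 5.97 ± 2.00 CPM, were among the large classes that gave others. Flt4 stood at 104.2 ± 24.7 CPM in endothelium, and the highest mean among neuronal classes was 0.53 CPM in GABAergic neurons. Endothelium gave 37.3% of Flt4 UMIs and GABAergic neurons 32.9%. No Flt4 UMI was found in B cells, T cells, choroid plexus epithelium, committed oligodendrocytes, ependymal cells, fibroblasts, mural cells or tanycytes. Of the 5 lymphatic markers, summed levels in deep brain endothelium reached at most 47.0 CPM in any library, and Ccl21a, a chemokine that defines lymphatic endothelium, was at 0.

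The co-receptors were spread over many classes. Nrp1 was highest in border macrophages, at 1028 ± 294.8 CPM (n = 10), followed by endothelium at 329.4 ± 97.8 CPM, microglia at 242.3 ± 44.7 CPM and astrocytes at 200.1 ± 41.4 CPM (n = 12 each). The gap from border macrophages to endothelium was larger than either SD, and those from endothelium to microglia and from microglia to astrocytes were not larger than both. Mature oligodendrocytes held 6.30 CPM. Nrp2 was highest in endothelium at 322.8 ± 163.3 CPM, then tanycytes at 127.1 ± 64.3 CPM (n = 8), the remaining neurons outside the named transmitter classes at 122.0 ± 13.1 CPM and microglia at 116.0 ± 17.0 CPM. The last 3 of these overlapped. In controls alone endothelium held 181.8 ± 41.3 CPM of Nrp2 (n = 6), tanycytes 136.4 ± 73.9 CPM (n = 2) and the remaining neurons 121.2 ± 17.4 CPM (n = 6). Within neuronal classes the neuropilins varied between clusters. Over 12 glutamatergic clusters Nrp1 ran from 10.9 to 356.7 CPM and Nrp2 from 15.5 to 668.1 CPM, and over 11 GABAergic clusters Nrp1 ran from 13.5 to 217.9 CPM and Nrp2 from 36.2 to 285.9 CPM. The highest Nrp2 was in a glutamatergic cluster of 814 nuclei led by Nwd2 and Cpne4.

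**Figure D1:**
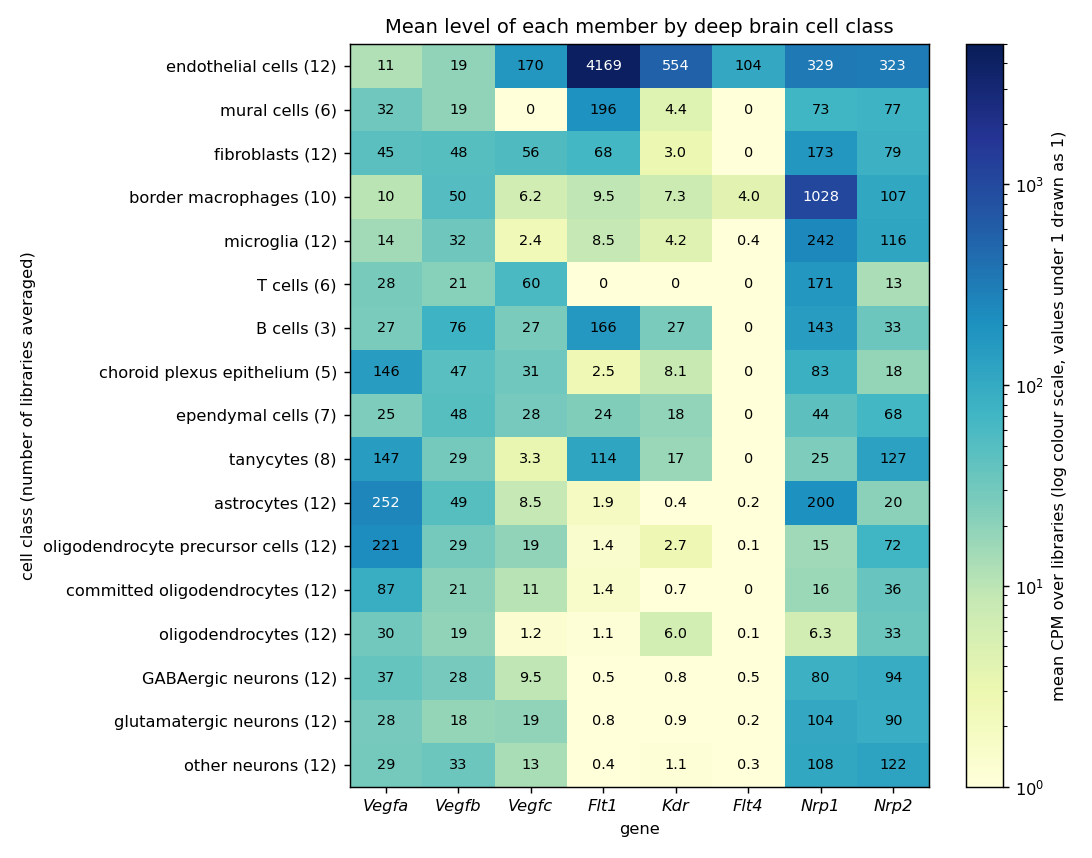
Mean level of each gene (columns, CPM, log colour scale) in 17 deep brain cell classes (rows), averaged over the libraries with at least 10 nuclei. Flt1, Kdr and Flt4 are highest in endothelial cells, Vegfa in astrocytes and precursor cells, and Nrp1 in border macrophages.

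Outside endothelium Flt1 was also measured in mural cells (196.3 ± 124.6 CPM, n = 6), B cells (165.6 ± 50.6 CPM from 15 UMIs, n = 3), tanycytes (113.9 ± 46.6 CPM, n = 8) and fibroblasts (67.9 ± 31.6 CPM, n = 12). T cells held none, with 3 counts corresponding to 15.4 CPM. UMIs of endothelial markers were present at low levels in other classes, so Flt1 was set beside the 14 endothelial markers. In endothelium there were 19.4 Flt1 UMIs for every 100 UMIs of these markers together. The ratio was 18.6 in fibroblasts, 3.5 in astrocytes and between 1.3 and 1.9 in neurons. It was 73.6 in mural cells (64 Flt1 against 87 marker UMIs), 155.9 in tanycytes (53 against 34 UMIs), 37.3 in B cells (19 against 51 UMIs) and 20.0 in border macrophages (4 against 20 UMIs). In tanycytes, Flt1 UMIs therefore outnumbered those of all 14 endothelial markers.

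Between genotypes, 12 cell classes of deep brain had at least 3 libraries with 10 nuclei in each genotype. The counts of each class were summed per library and tested with edgeR's quasi-likelihood test, with Benjamini-Hochberg adjustment over all genes of the class. Over these classes 991 of 111298 gene and class pairs passed an adjusted p of 0.05, or 0.890%. Of the 51 pairs of a VEGF gene and a class, 2 passed, both higher in mutants, and 13 had an unadjusted p under 0.05, which 10.1% of all pairs had. The 2 were Nrp2 in endothelium and Vegfa in oligodendrocyte precursor cells. In endothelium 63 of 3329 genes (1.89%) passed, and in precursor cells 5 of 10731 (0.0466%).

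Nrp2 in deep brain endothelium was higher in mutants, at 463.9 ± 95.8 CPM against 181.8 ± 41.3 CPM (SD, n = 6 each). Controls 1 to 6 held 215.9, 189.6, 125.8, 143.3, 182.3 and 233.7 CPM, from 25, 32, 18, 11, 31 and 31 UMIs. Mutants 1 to 6 held 392.7, 389.3, 477.1, 399.6, 486.5 and 638.4 CPM, from 34, 58, 115, 99, 68 and 33 UMIs. Every mutant lay above every control, a separation that 1.44% of the 3329 genes tested showed. The log2 fold change was 1.30 (SE 0.19, edgeR quasi-likelihood adjusted p = 4.37e-04, n = 6 against 6). It ran from 1.09 to 1.35 over the alternative analyses and from 1.21 to 1.39 with each mouse left out in turn, and kept an adjusted p under 0.05 in all of them. The lowest value, 1.09 (adjusted p = 0.0027), came without the endothelial subclusters that carried markers of another cell type.

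Vegfc did not pass the test, although its mean was higher in mutants. Controls 1 to 6 held 34.5, 183.7, 188.7, 78.2, 64.7 and 75.4 CPM and mutants 1 to 6 held 207.9, 382.6, 199.1, 217.9, 150.2 and 251.5 CPM. Controls 2 and 3 overlapped the mutants. The log2 fold change was 1.09 (SE 0.31, edgeR adjusted p = 0.0747). It was past the threshold under 4 alternatives given in the closing section and without control 2 (0.0381) or control 3 (0.0139). Without the subclusters that carried other markers it was 0.86 (adjusted p = 0.184).

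The receptor tyrosine kinases did not pass in endothelium. Flt1 stood at 3858, 4444 and 5681 CPM (lowest, median, highest) in controls and 3347, 3608 and 4357 CPM in mutants, a log2 fold change of -0.32 (SE 0.14, edgeR unadjusted p = 0.0341, adjusted p = 0.380). Kdr stood at 377.4, 462.9 and 595.5 CPM in controls and 450.4, 600.0 and 851.1 CPM in mutants (0.37, SE 0.18, adjusted p = 0.467). Both receptors overlapped between genotypes, Flt1 with a lower and Kdr with a higher median in mutants. Flt4 gave 82.3, 108.0 and 113.1 CPM in controls and 85.9, 90.6 and 174.5 CPM in mutants (log2 fold change 0.00, SE 0.23, adjusted p = 1.00). Nrp1 gave 194.1, 277.2 and 512.6 CPM against 261.8, 360.9 and 483.6 CPM (0.24, SE 0.22, adjusted p = 0.794). Vegfa and Vegfb had 20 and 34 UMIs in deep brain endothelium and were not tested.

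**Figure D2:**
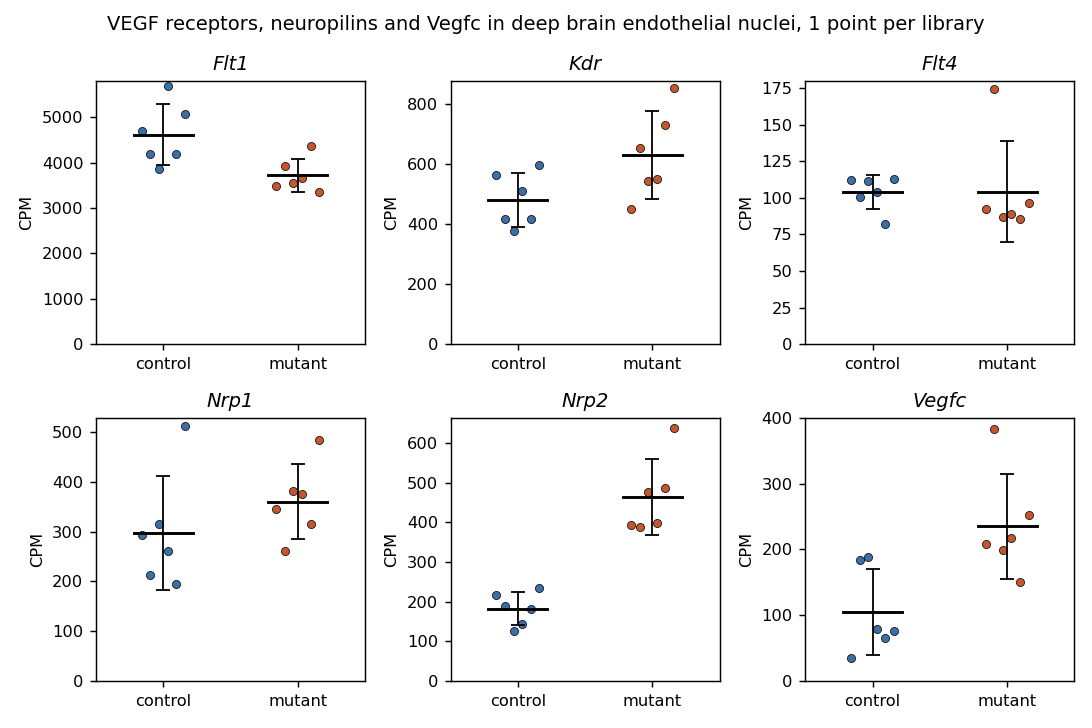
CPM of 6 VEGF genes in deep brain endothelial cells by genotype, 1 point per mouse with the mean ± SD (n = 6 each). For Nrp2 all mutants, from 389.3 CPM, lie above all controls, up to 233.7 CPM, while the groups overlap for the other genes.

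Marker lists of other cells and vessel segments were summed in the same endothelial libraries. Of 25 lists only the venous one separated the genotypes. The 7 venous markers gave 665.1 to 1761 CPM in controls and 1779 to 2443 CPM in mutants, without overlap. The 7 arterial markers gave 208.5 to 1761 CPM and 615.2 to 1848 CPM, and the 6 capillary markers 3138 to 5200 CPM and 2287 to 3548 CPM. The 10 mural markers gave 1108 to 4103 CPM in controls and 100.7 to 1710 CPM in mutants. The 14 endothelial markers ranged from 17500 to 22440 CPM in controls and from 21170 to 25530 CPM in mutants, and the 10 microglial markers from 129.6 to 404.0 CPM and from 154.8 to 464.1 CPM. The part of these differences in the results for Nrp2 and Vegfc was not tested.

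The endothelial nuclei of both regions (756) were also clustered again without the VEGF genes and described by subcluster. Values here are pooled over mice and carry no test. Those by genotype have an exact 95% Poisson interval, which covers counting error only. The largest, subcluster 0 of 212 nuclei, held 4918 CPM of Flt1, and its deep brain nuclei were 132 in controls and 61 in mutants. At most 1 gene of any list scored in it was over 2-fold higher, and not all marker lists were scored. Subcluster 1, of 129 nuclei, had 3 of 6 capillary markers over 2-fold higher, but none of them among its 10 leading genes, which included Ttr, the MHC class II genes H2-Ab1 and H2-Eb1 and ribosomal genes. It held 956.8 CPM of Kdr and 4750 CPM of Flt1. Subcluster 2, of 109 nuclei, had 5 of 7 arterial markers over 2-fold higher and held 747.5 CPM of Vegfc, but only 228.1 CPM of Kdr. Subcluster 4, of 60 nuclei, had 4 of 7 venous markers over 2-fold higher and held 809.1 CPM of Nrp2 and 2421 CPM of Flt1. Thus Vegfc was highest in subcluster 2 and Nrp2 in subcluster 4. Of 4 further subclusters that carried markers of neurons, microglia, fibroblasts or mural cells, that with 9 of 10 microglial markers (58 nuclei, 55 of them mutant) held 737.7 CPM of Nrp2 (160 UMIs, against 125 in subcluster 4). That with all 12 fibroblast markers (subcluster 6, 49 nuclei) also had 6 of 7 arterial markers over 2-fold higher. It held 513.0 CPM of Vegfc and was left out with the subclusters that carried other markers. No interval was calculated for these values over both regions.

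Within the largest subcluster of deep brain, Nrp2 was 219.4 CPM (161.7 to 290.8) in controls and 310.5 CPM (219.8 to 426.2) in mutants, with overlap, and Kdr was 452.4 CPM (367.7 to 550.8) and 711.0 CPM (569.4 to 877.0), with intervals apart. Nrp2 in subcluster 1 was 191.6 CPM (138.1 to 259.0) in 58 control nuclei and 509.7 CPM (435.8 to 592.6) in 55 mutant nuclei, with intervals apart. In the venous-marker nuclei it was 430.0 CPM (250.5 to 688.5) in 18 control nuclei from 17 UMIs, with an interval of 720.3 to 1167 CPM in 31 mutant nuclei from 70 UMIs. In the arterial-marker nuclei it was 173.6 CPM (89.7 to 303.2) and 186.8 CPM (119.7 to 278.0), with intervals that overlapped. Vegfc in the arterial-marker nuclei of subcluster 2 was 607.5 CPM (437.8 to 821.2) in 32 control and 809.5 CPM (661.4 to 980.8) in 60 mutant nuclei, again overlapping. In subclusters 0 and 1 it was 9.14 and 13.7 CPM in controls and 24.5 and 51.3 CPM in mutants, with overlap. In the venous-marker nuclei Vegfc was lower in mutants, at 66.0 CPM (21.4 to 154.0) from 5 UMIs. Controls held 303.5 CPM (156.8 to 530.2) there from 12 UMIs, with intervals just apart. Flt1 in subcluster 1 was 5529 CPM (5222 to 5850) in controls and 4397 CPM (4175 to 4629) in mutants, with intervals apart. In subclusters 0, 2 and 4 the Flt1 intervals overlapped. Controls held 5054, 5410 and 2909 CPM there and mutants 4674, 4585 and 2521 CPM. The Kdr intervals overlapped in subclusters 1, 2 and 4. There Kdr was 720.8, 332.7 and 303.5 CPM in controls and 916.9, 202.4 and 448.8 CPM in mutants, so lower in mutants in subcluster 2.

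**Figure D3:**
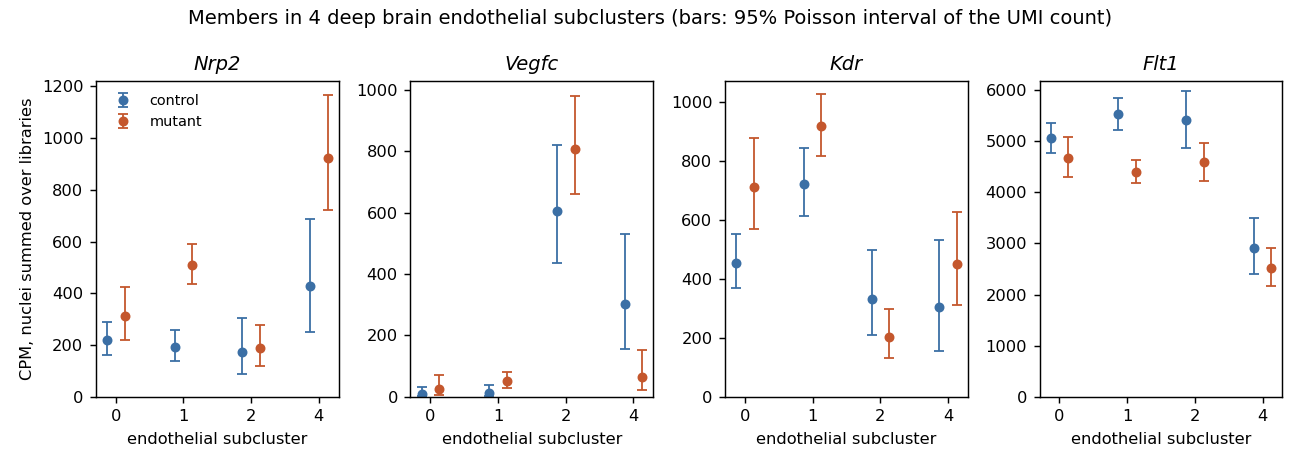
Pooled CPM of Nrp2, Vegfc, Kdr and Flt1 in endothelial subclusters 0, 1, 2 and 4 of deep brain by genotype, with exact 95% Poisson intervals as bars. Nrp2 is higher in mutants in subcluster 1 (509.7 against 191.6 CPM), and of the subclusters shown Vegfc is highest in subcluster 2 in both genotypes.

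Vegfa in oligodendrocyte precursor cells of deep brain stood at 119.7, 152.3 and 203.9 CPM (lowest, median, highest) in controls and 156.5, 274.3 and 404.4 CPM in mutants, from 1309 and 2136 UMIs. The ranges overlapped, and 0.326% of the genes tested in this class had groups without overlap. The log2 fold change was 0.84 (SE 0.16, edgeR adjusted p = 0.0280, n = 6 against 6). It lost the call with DESeq2 (adjusted p = 0.167) and without control 1, 4 or 5 or mutant 2 or 5, each in turn, for which the adjusted p lay between 0.0841 and 0.171, while the fold change stayed between 0.71 and 0.97. The summed precursor cell markers ranged from 13230 to 14180 CPM in controls and 13100 to 14310 CPM in mutants, and astrocyte markers ranged from 986.5 to 1074 CPM in controls and 963.9 to 1146 CPM in mutants. Of the 25 lists summed in these cells, only the 6 B cell markers separated the genotypes (186.9 to 215.4 CPM and 230.1 to 273.4 CPM, with Cd79a and Ms4a1 at 0). The 6 interferon genes gave 63.6 to 111.8 CPM and 88.3 to 140.3 CPM. The part of either in the result was not tested. In cortical precursor cells, Vegfa was 159.8, 227.2 and 309.6 CPM in controls and 190.2, 334.0 and 479.3 CPM in mutants (log2 fold change 0.48, SE 0.19, adjusted p = 0.821). The difference of the genotype effect between regions was 0.34 (SE 0.27, adjusted p = 1.00), so the effect was not shown to differ between regions. That fit had no block for the mouse, although each mouse gave both regions. Astrocytes, which also hold Vegfa, gave 207.5, 267.1 and 363.3 CPM in controls and 188.5, 239.5 and 267.4 CPM in mutants of deep brain (-0.25, SE 0.12, adjusted p = 0.307).

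**Figure D4:**
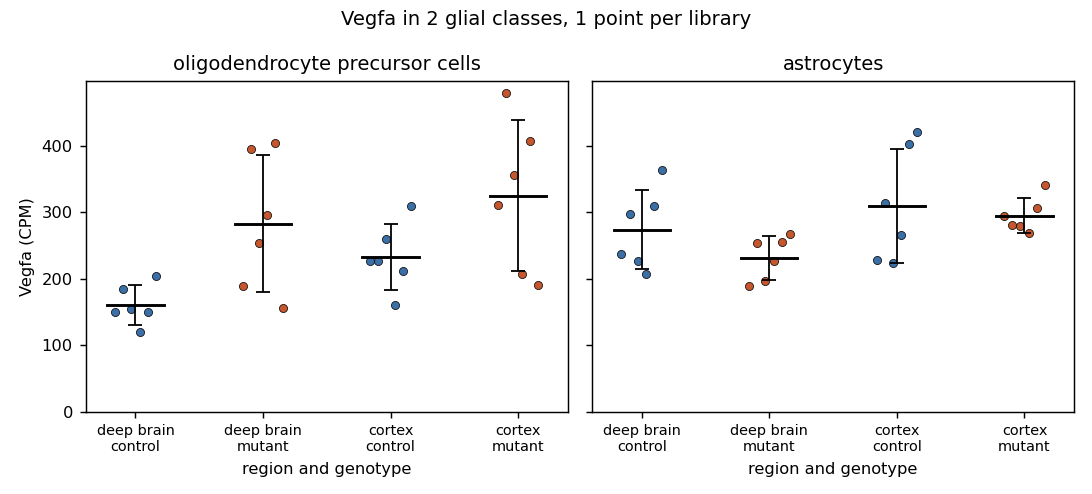
Vegfa level (CPM) in oligodendrocyte precursor cells and astrocytes by region and genotype, 1 point per library with the mean ± SD. In deep brain precursor cells the mutants range from 156.5 to 404.4 CPM and the controls from 119.7 to 203.9 CPM.

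Other pairs in deep brain remained short of the threshold. Kdr in oligodendrocytes was 3.52, 4.58 and 5.68 CPM in controls and 3.99, 7.78 and 9.53 CPM in mutants (log2 fold change 0.72, SE 0.19, adjusted p = 0.0666). Endothelial markers were low in that class, at 1402 UMIs in all against 87005898 UMIs of the class. Vegfa in glutamatergic neurons was 18.7, 25.6 and 30.1 CPM in controls and 29.02, 29.97 and 34.89 CPM in mutants (0.32, adjusted p = 0.109). Nrp2 in GABAergic neurons was 54.4, 73.3 and 101.4 CPM in controls and 88.6, 109.5 and 126.2 CPM in mutants (0.52, SE 0.13, adjusted p = 0.516), and Nrp1 in glutamatergic neurons 62.1, 132.0 and 227.2 CPM against 54.1, 83.4 and 90.7 CPM (-0.77, SE 0.29, adjusted p = 0.206). Nrp1 in border macrophages was 819.7, 944.5 and 1020 CPM in 4 control libraries and 772.2, 927.2 and 1653 CPM in 6 mutant libraries (0.23, adjusted p = 0.992). Summed over all deep brain nuclei, 324 of 21040 genes passed (1.54%) and none of the VEGF genes did. Among these Kdr came nearest, at 1.81, 2.39 and 2.85 CPM in controls and 2.37, 3.33 and 4.29 CPM in mutants (0.47, SE 0.14, adjusted p = 0.128). Over the all-nuclei sums of both regions, 4 of 15 pairs had an unadjusted p under 0.05 by edgeR, as did 11.5% of those of all genes.

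The share of endothelial nuclei, counted over all kept nuclei, was 0.467 ± 0.204% in mutants and 0.517 ± 0.103% in controls of deep brain (n = 6 each), lower by 0.0493 points on average (-0.0493), with a two-sided p of 0.617 in an exact permutation test. With each mouse left out it ran from -0.106 to 0.0112 points, so that its sign was not stable. In cortex it was 0.145 ± 0.125% in mutants and 0.209 ± 0.0961% in controls (-0.0646 points, exact permutation p = 0.325), and -0.102 points without the subclusters that carried markers of other classes (exact permutation p = 0.0216, chosen after seeing the data). In cortex the subcluster with microglial markers, removed there, held 32 of 70 mutant and 1 of 70 control endothelial nuclei, so its removal by construction lowered the mutant share. The same removal in deep brain gave -0.0701 points (exact permutation p = 0.275). With 6 against 6 the smallest p this test can give is 0.00216.

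Other genes of the VEGF pathway passed about as often as genes in general. Listed pairs count a gene once per class, with the sum over all nuclei as a class. In deep brain 7 of 733 listed pairs passed (0.955%), against 0.994% of the pairs of all genes. None of 138 pairs of other VEGF family genes passed. Of 139 pairs of VEGF response genes 1 was higher and 4 lower in mutants, of 374 pairs of signal transduction genes 1 was higher and 1 lower, and of 82 pairs of hypoxia genes none passed. The 1 that was higher in the response list was Angpt2 in endothelium, which encodes angiopoietin 2, a destabilizing ligand of the TIE2 receptor (log2 fold change 3.51, SE 0.45, edgeR adjusted p = 1.04e-04, no overlap between genotypes). Angpt2 lies within Mcph1 on the other strand. In endothelial subcluster 1 of deep brain no Angpt2 UMI was found in controls and 232.2 CPM (183.3 to 290.3) in mutants. The subcluster with microglial markers held 595.9 CPM (447.7 to 777.5) in 23 mutant nuclei, from 54 UMIs, and had only 2 control nuclei. Subclusters 0 and 2 held 22.9 and 0 CPM in controls and 106.2 and 101.2 CPM in mutants. In subcluster 4 the order was reversed, with 75.9 CPM in controls from 3 UMIs and 0 in mutants. Of the lower ones, Mef2c, a transcription factor, fell by 0.68 in astrocytes (SE 0.15, adjusted p = 0.0157), and Nr4a1, an early response nuclear receptor, fell by 1.11 in oligodendrocytes (SE 0.24, adjusted p = 0.0320). Cd34, a sialomucin of endothelial and progenitor cells, fell by 2.14 in glutamatergic neurons (SE 0.37, adjusted p = 0.0427), where it overlaps an antisense gene, Gm16897, and by 1.29 in the sum over all nuclei (SE 0.22, adjusted p = 0.0160). Signal transduction genes in astrocytes included Pik3r1, a regulatory subunit of PI3 kinase, which fell by 0.49 (SE 0.12, adjusted p = 0.0225), and Prkcb, a protein kinase C, which rose by 0.45 (SE 0.12, adjusted p = 0.0375). In endothelium the median log2 fold change was 0.35 over the 9 other family genes tested, 0.08 over the 17 response genes and -0.17 over the 21 signal transduction genes, against -0.01 over all 3329 genes. In precursor cells none of the 8 hypoxia genes tested passed, and their median was -0.04, against 0.00 over all 10731 genes.

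In cortex 247 of 68603 gene and class pairs passed between genotypes (0.360%), and 0 of 31 VEGF pairs in 8 classes, with 4 at an unadjusted p under 0.05 by edgeR (7.47% of all pairs). Nrp2 in oligodendrocytes came nearest, at 28.0, 45.5 and 53.6 CPM in controls and 15.3, 24.9 and 34.1 CPM in mutants (log2 fold change -0.78, SE 0.19, adjusted p = 0.0634). With the replicate number as a block it passed (-0.80, edgeR adjusted p = 0.00417), as did Nrp2 in GABAergic neurons (-0.80, edgeR adjusted p = 0.0321). Nrp2 in cortical GABAergic neurons was 46.7, 82.4 and 113.5 CPM in controls and 28.3, 42.1 and 65.1 CPM in mutants (-0.79, SE 0.20, adjusted p = 0.264), the opposite direction to deep brain. The test of the difference between regions, in which 9 of 101550 pairs passed (0.00886%) and 0 of 46 VEGF pairs in 8 classes, with 3 at an unadjusted p under 0.05 by edgeR (5.09% of all pairs), gave 1.31 for this gene and class (SE 0.26, adjusted p = 0.0579). The sum over all cortical nuclei had 50 of 18171 genes past the threshold (0.275%), with none of the VEGF genes. Of the listed pathway genes, 1 of 497 pairs passed in cortex (0.201%, against 0.342% over all genes), the semaphorin receptor Plxna2 in astrocytes, which was lower in mutants (-0.77, SE 0.20, edgeR adjusted p = 0.0372).

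Cortical endothelium had 10 nuclei or more in 4 libraries, of which 1 was a control, and no test was run below 3 libraries per genotype. Nrp2 was 143.8 CPM in that control and 454.7, 580.7 and 930.1 CPM in the 3 mutants. Vegfc was 115.1 CPM against 58.1 to 355.9 CPM, Flt1 4100 CPM against 2613 to 3276 CPM, Kdr 654.5 CPM against 632.2 to 1278 CPM, and Nrp1 280.5 CPM against 174.2 to 380.1 CPM. The class was not made of the same nuclei in both genotypes. The endothelial subcluster with microglial markers and 737.7 CPM of Nrp2 held 7 of 12, 10 of 23 and 13 of 25 nuclei of these mutants and 1 of 36 of the control.

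Regions were compared within controls. In 8 classes, 18502 of 92784 gene and class pairs passed (19.9%), and 9 of 41 VEGF pairs (21.95%), 4 higher and 5 lower in deep brain. With the mouse as a block, 11 passed, among them Nrp1 in GABAergic neurons (0.47, edgeR adjusted p = 0.0292, against 0.0577 without it). Flt4 in GABAergic neurons and Flt1 in the neurons without a transmitter name were among the 11 but had not been tested in the main fit. Nrp1 in astrocytes was 153.8, 181.7 and 206.4 CPM in deep brain and 82.2, 92.7 and 123.0 CPM in cortex (log2 fold change 0.87, SE 0.12, edgeR adjusted p = 4.14e-05), without overlap. In astrocytes 1220 of 11814 genes passed (10.3%). Astrocytes formed 2 clusters in deep brain, and the larger one, 8182 nuclei led by Slc6a11, held 237.2 CPM of Nrp1. The other (2270 nuclei, led by Slc1a3 and Slco1c1) held 96.9 CPM, near the 102.7 CPM of the single cortical cluster of 1590 nuclei led by the same genes, with both genotypes counted in these clusters. Nrp2 in astrocytes had the opposite order, 21.0 CPM (14.0 to 32.6) in deep brain and 36.7 CPM (12.7 to 66.9) in cortex as median and range (-0.995, SE 0.28, adjusted p = 0.0259), and was lost under DESeq2 (0.111), without doublets (0.0663) and without control 1 (0.115), 2 (0.0844) or 5 (0.275).

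Among neurons, Nrp2 in the neurons without a transmitter name was 99.1, 123.2 and 146.9 CPM in deep brain and 40.8, 59.7 and 74.7 CPM in cortex (log2 fold change 0.88, SE 0.16, edgeR adjusted p = 3.06e-04), without overlap. In that class 58.2% of genes passed, and its median nucleus held 8806 UMIs in deep brain and 825 in cortex, over both genotypes. The fold change ran from 0.59 to 0.99 over 7 alternatives, among them that without the shallow cortical libraries. Its adjusted p by edgeR or DESeq2 was at most 0.00371 in them. The part of the depth difference was not tested further. In GABAergic neurons 15.0% of genes passed and in glutamatergic neurons 28.3%. Vegfc in GABAergic neurons was 8.50, 10.1 and 12.1 CPM in deep brain and 11.7, 16.4 and 20.8 CPM in cortex (-0.76, SE 0.14, adjusted p = 0.00328). Vegfa in glutamatergic neurons was 18.7, 25.6 and 30.1 CPM against 17.0, 18.6 and 19.2 CPM (0.39, SE 0.09, adjusted p = 0.00483, but 0.0696 without the shallow libraries). Of the 7 shallow libraries, those of controls 1, 3 and 4 were in the comparison of regions. Without them only the cortex of controls 2, 5 and 6 was left, so a lost call can also come from the smaller group. Vegfa in the neurons without a transmitter name was lower in deep brain (-0.74, SE 0.18, adjusted p = 0.00316), but by 0.18 without the shallow libraries (adjusted p = 0.613). Flt1 in glutamatergic neurons was 0.478 to 1.09 CPM in deep brain and 0.183 to 0.97 CPM in cortex (1.16, SE 0.37, adjusted p = 0.0294), a call lost with a block for the mouse (0.0560), without the shallow libraries (0.184) and without control 1, 3, 5 or 6. 

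Vegfa in oligodendrocyte precursor cells was lower in deep brain than in cortex of controls (log2 fold change -0.55, SE 0.13, edgeR adjusted p = 0.0120), a call lost at clustering resolution 0.5 (0.0788) and without control 3 (0.0533). Flt1 in fibroblasts was 15.8, 54.6 and 107.6 CPM in deep brain and 124.1, 148.9 and 169.0 CPM in the 4 cortical libraries with enough nuclei (-1.37, SE 0.35, adjusted p = 0.0277), without overlap. In precursor cells 3.04% and in fibroblasts 3.91% of genes passed. It was lost at resolution 0.5 (0.135) and without control 2, 3, 4 or 5 (0.0524 to 0.124). The classes were not composed alike: the cortical class held a cluster of 66 nuclei led by Ranbp3l and Ptgds with 326.0 CPM of Flt1, whereas the deep brain cluster with like leading genes (198 nuclei, 260.7 CPM of Flt1) stayed without a name and outside the class.

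In microglia, Flt1 differed between a small state and the other nuclei. Microglia were taken after removal of nuclei that held a UMI of Mrc1, Mbp, Aqp4 or Rbfox3 (1117 of 3386, 32.99%), and clustered without the VEGF genes and without the markers of calcification-associated microglia (CAM). One cluster, called CAM-like, held 67 nuclei, 55 from mutants and 12 from controls. All 14 detected CAM markers were higher in it. Of its 10 leading genes only Lpl, a lipoprotein lipase, was a CAM marker, and 5 were the proliferation or division genes Mki67, Top2a, Knl1, Neil3 and Diaph3, so the cluster mixed both states. At resolution 0.8 in place of 0.4 42 of the 67 nuclei fell into a cluster of 44 with CAM markers (5 from controls) and the other 25 made up a proliferating cluster (7 from controls). It was formed from the same nuclei that are compared, so the test describes the size of the difference and is no independent evidence. In this comparison 389 of 6421 genes passed (6.06%).

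Flt1 in CAM-like nuclei of mutants 1 to 6 was 389.9, 96.0, 242.9, 78.5, 87.7 and 117.7 CPM, from 9, 3, 9, 1, 2 and 4 UMIs. In the other microglia of the same mice it was 2.17, 0, 8.08, 10.2, 1.96 and 2.75 CPM. Each mouse showed the same direction. The log2 fold change was 5.54 (SE 0.77, edgeR with the mouse as a block, adjusted p = 1.62e-10, 5 mice, since mutant 4 had under 5 CAM-like nuclei). Flt1 met the count filter only through the CAM-like sums, where it was high, and 3 of the 8 members were tested. This p therefore describes the difference and is no support of its own. Pooled over mutants, the level was 174.0 CPM (115.6 to 251.5, exact Poisson) against 4.20 CPM (2.10 to 7.52), and 15 of 55 CAM-like nuclei (27.3%) held a Flt1 UMI. Kdr, Flt4, Cldn5 and Pecam1 had no UMI in these nuclei, where 3 counts correspond to 18.6 CPM, and Cdh5 had 1. The 14 endothelial markers summed to 74.6 CPM against 166.2 CPM in the other microglia. The ratio was 233.3 Flt1 UMIs per 100 marker UMIs (28 against 12). With the cluster of 44 nuclei alone as CAM-like the log2 fold change was 6.11 (edgeR adjusted p = 1.75e-16). Without microglia that held an endothelial marker UMI it was 6.31 (adjusted p = 1.54e-09). In controls 1 Flt1 UMI was found in the 12 CAM-like nuclei, or 26.2 CPM (0.66 to 146.0), where 3 counts correspond to 78.6 CPM. This interval overlapped that of the mutants.

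The neuropilins did not pass the threshold in this comparison. Nrp1 was 509.6 CPM (405.3 to 632.5) against 241.5 CPM (223.0 to 261.1), a log2 fold change of 0.65 (SE 0.24, edgeR adjusted p = 0.0946). It passed in 3 of 7 alternatives, among them the cluster of 44 nuclei (0.86, adjusted p = 0.0484), and without mutant 2 (0.81, adjusted p = 0.0486). Nrp2 was 217.5 CPM against 116.9 CPM (0.76, SE 0.33, adjusted p = 0.185). In microglia as a whole, between genotypes, Flt1 was 0, 1.66 and 6.96 CPM (lowest, median, highest) in controls, from 6 UMIs, and 5.64, 12.2 and 29.4 CPM in mutants, from 39 UMIs. The ranges overlapped. Its counts were below the filter, so the main analysis did not test it, and without the filter it passed (log2 fold change 2.33, SE 0.59, edgeR adjusted p = 0.0230). The same setting gave Vegfc in deep brain endothelium an edgeR adjusted p of 0.000595, against 0.0747 in the main fit. Whether fits without the filter understate the spread between mice was not tested. Of the 39 Flt1 UMIs in mutants, 28 came from the 55 CAM-like nuclei. In the other microglia the pooled level was 4.20 CPM (2.10 to 7.52) in mutants and 2.23 CPM (0.72 to 5.21) in controls, with overlap. Nrp1 changed by 0.22 (adjusted p = 0.884) and Nrp2 by 0.20 (adjusted p = 0.927).

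**Figure D5:**
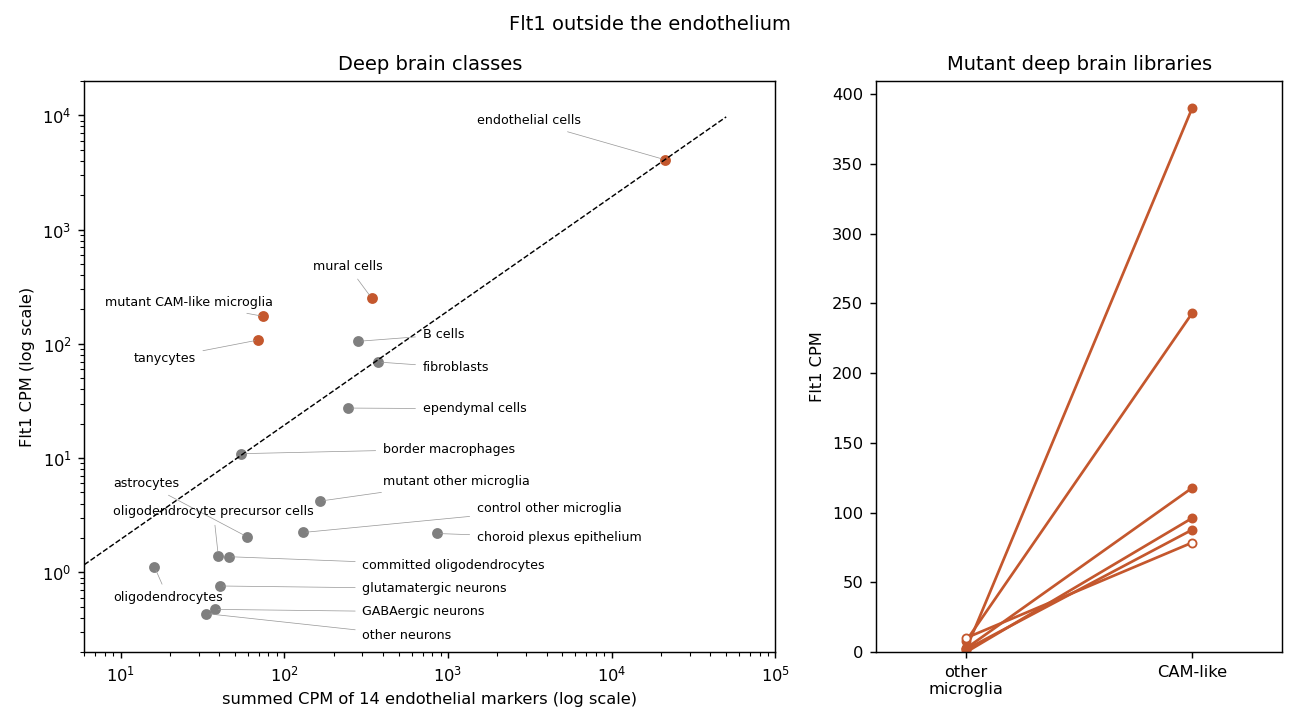
Left, Flt1 CPM against the summed CPM of 14 endothelial markers per deep brain class (log axes), with a dashed line at the ratio of the endothelium; mural cells, tanycytes, B cells and mutant CAM-like microglia lie above it, and border macrophages (20.0 against 19.4 per 100) about on it. Right, Flt1 CPM in other and CAM-like microglia of each mutant, where every mutant is higher in CAM-like nuclei and the open circle is mutant 4, not in the test.

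Finally, the genes whose pattern over the 17 deep brain classes was most like that of each member were listed, by Pearson's r of log2(CPM + 10) over 10518 genes and without a test. Points share libraries and depth. For Kdr these were Cldn5, a tight junction protein of endothelium (r = 0.964), Depp1 (0.955) and Clic5 (0.955), and for Flt4 Tmem252, Slc38a5 and Myct1 (0.998 each). For Flt1 they were Rps3a1 (0.899), Ifitm3 (0.897) and Net1 (0.897), and for Nrp2 Adam15 (0.845), Smad1 (0.83) and Zbtb7a (0.808). For Vegfa they were Gm3764 (0.881), Zfp641 (0.868) and Arhgef19 (0.859), and for Vegfc Dcun1d3 (0.865), Trim16 (0.850) and Abcc4 (0.827). Vegfb followed Fgd4 (0.801), Safb (0.799) and Rhoq (0.796), and Nrp1 Rab43 (0.814), Rreb1 (0.802) and Cltc (0.798). With a pseudocount of 1 in place of 10, 3 of 3 such genes were kept for Nrp2, 2 for Kdr, 1 for Vegfa, Vegfc, Flt1, Flt4 and Nrp1 and none for Vegfb.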

How the data were processed

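The authors deposited raw UMI counts per gene and nucleus. Per the labels, libraries were made with the 10x Genomics 5′ chemistry on nuclei of frozen tissue, and the submitters' processing notes name bcl2fastq 2.20.0.422, Cell Ranger 5.0.1 and mm10. Depth per library is given in the opening paragraphs, and intervals and floors of 3 counts cover counting error only. How strand was used in counting is not given in the sources used here. Gm29083, on the other strand of Nrp2, was counted as a gene of its own. The 8 genes and all gene lists were chosen with earlier results of these data known.

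Nuclei with 500 to 7000 genes and at most 20% mitochondrial UMIs were kept. Each region was clustered on 2000 variable genes without the 8 members (20 components, 20 neighbours, Leiden resolution 1) with Python 3.11.15, scanpy 1.11.5 and igraph 0.11.9, and named from fixed markers. Microglial nuclei that held Mbp, Mrc1, Rbfox3 or Aqp4 UMIs were removed, and the rest clustered with 30 components at resolution 0.4. By Scrublet scores 1.80% to 8.05% of nuclei per library were called doublets, which were removed only as an alternative. In some cortical libraries Scrublet's own threshold marked too few or too many nuclei (0.016% to 46.66%). There at most the 6% with the highest scores were taken instead.

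Counts were summed per library and class, for classes with 10 nuclei in at least 3 libraries of each group, and tested with edgeR 4.0.16 in R 4.3.3 (quasi-likelihood, TMM, filterByExpr, two-sided, Benjamini-Hochberg over all genes tested). DESeq2 1.42.0, other factors, filters, resolutions and left-out mice were alternatives, and 1 on endothelial subclusters was chosen after seeing the data. The deep brain to cortex comparison did not have the mouse as a block in the main fit, and that of CAM-like microglia did. The main test of the genotype effect between regions had no such block either, although each mouse gave both regions. Shares were compared by exact permutation over 924 splits.

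Named genes were the 8 members, at most 5 genes per list with an adjusted p under 0.05 in a genotype comparison, and the 3 genes most like each member in pattern among those with 50 CPM in 1 class. Genes named to describe clusters, overlaps or markers were added to these. In simulated data with the design of deep brain endothelium, 153 of 193 genes changed by 1 on the log2 scale were recovered, with 3 false calls among 3159 genes, and in that of precursor cells 185 of 195, with 14 false calls among 10558 genes. Deviations of mutant and control libraries of 1 number correlated at over 0.1 in all 6 pairs of the cortical sums over all nuclei (0.349 to 0.911), in 4 of 6 pairs of those of deep brain (-0.218 to 0.571) and in 0 of 6 of deep brain endothelium (-0.047 to 0.041). The main fits have no block for the number, and values with it are given in the closing section. Both regions of 1 mouse share the animal.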

Additional observations from a re-analysis of the deposited data

Results flagged for a closer look

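In 4 of 99 groups of 4 to 6 libraries, 1 library stood far from the others by the gap to its nearest neighbour over the whole range. Chance alone flags about 1 in 20 groups. Flt4 in deep brain endothelium was 174.5 CPM in mutant 2 (26 UMIs in 51 nuclei), against 85.9 to 96.7 CPM in the other mutants. Vegfa in deep brain tanycytes was 359.3 CPM in mutant 6 (11 UMIs in 15 nuclei), against 71.1 to 165.4 CPM in the others. Nrp2 in cortical oligodendrocyte precursor cells was 124.4 CPM in control 1 (23 UMIs in 23 nuclei), against 50.1 to 76.4 CPM in the others. Kdr in cortical fibroblasts was 187.8 CPM in control 3 (10 UMIs in 10 nuclei), against 15.5 to 34.5 CPM in the other 3 libraries.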

How the results depend on the processing

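The counts of calls in this section stand without the share of all genes called in the same alternative. They therefore do not set the VEGF genes apart from genes in general. The 2 calls between genotypes in deep brain became 4 without the filter on low counts, 6 with DESeq2, 4 with age-matched mice as a block and between 1 and 4 with each mouse left out. The 0 calls in cortex became 1 without the filter, 2 with DESeq2, 1 with age-matched blocks and 0 to 1 with a mouse left out. With the replicate block, deep brain gave 3 calls and cortex 2, although the numbers do not mark shared animals or days in the labels. Vegfc in deep brain endothelium then passed (1.14, edgeR adjusted p = 0.0174), as it did without the filter (adjusted p = 0.000595), with DESeq2 (0.0248) and with age-matched blocks (0.0305), and so did Nrp2 in cortical oligodendrocytes (-0.80, adjusted p = 0.00417) and GABAergic neurons (-0.80, adjusted p = 0.0321). Between regions, 9 calls became 15 without the filter and 5 without the shallow cortical libraries, where Vegfb in the neurons without a transmitter name turned from -0.43 to 0.24. With the mouse as a block there were 11, without Flt1 in glutamatergic neurons and with Nrp1 in GABAergic neurons (0.47, adjusted p = 0.0292), Flt4 in GABAergic neurons (2.35, 0.0301) and Flt1 in the neurons without a transmitter name (-2.82, 0.0039). These Flt4 and Flt1 pairs were kept out of the main fit by its filter on low counts and were not tested there. In controls that Flt4 call rests on 81 UMIs in deep brain and 6 in cortex, and that Flt1 call on 32 and 45. Endothelial markers in the latter class summed to 33.4 CPM in deep brain and 82.3 CPM in cortex over both genotypes, and their part was not tested. The 0 interaction calls became 1 without the filter and 1 with DESeq2, both Nrp2 in GABAergic neurons, and the sum over all nuclei gave 1 with DESeq2, Kdr (0.47, adjusted p = 0.03). The 1 call in CAM-like microglia became 2 with RLE factors and at resolution 0.8, each adding Nrp1, 3 with no replicate block, and 1 to 2 with a mouse left out. The endothelial share in cortex differed by -0.102 points without subclusters that carried other markers (exact permutation p = 0.0216, chosen after seeing the data). That removal took the subcluster with microglial markers, 32 of 70 mutant and 1 of 70 control nuclei, so it lowered the mutant share by construction. With a mouse left out the cortical difference ran from -0.108 to -0.0415 points. In deep brain that range was -0.106 to 0.0112 points. The causes of these changes were not tested, nor was whether the fits without the filter understate the spread between mice. In the endothelial and CAM-like sums, low counts limited which members could be tested.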
